A study of Mus musculus with 287 samples.

Results

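Eph receptors and ephrins were followed through single cells of located clones in mouse cerebral organoids. The 10 genes, found by symbol among the 55359 gene IDs of the exon count table, are 6 receptor genes (Epha3, Epha4, Epha5, Epha7, Ephb1 and Ephb2) and 4 ligand genes (Efna5, Efnb1, Efnb2 and Efnb3). The remaining 12 genes of the family and a list of 30 genes for Eph effectors are given beside them. All 10 had counts, and all 10 passed the filter on low counts in the exon comparisons.

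Eph receptors are receptor tyrosine kinases that bind ephrins held on the surface of a neighbouring cell. Ephrin-A ligands are attached to the membrane by a lipid anchor and bind mainly EphA receptors, whereas ephrin-B ligands span the membrane and bind mainly EphB receptors. EphA4 also binds ephrin-B ligands. Signals run both into the receptor cell (forward) and into the ligand cell (reverse). In the cerebral cortex the family is known for axon guidance, for the sorting and lateral spread of related neurons and for the behaviour of radial glia, the progenitors of the cortex.

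The 3 ephrin-B genes are close to each other in sequence where their coding sequences end, which does not stand for all 10 members. The ends of their coding sequences encode the cytoplasmic tail, through which ephrin-B proteins signal in reverse. The last 99 bases of each longest coding sequence, stop codon included, are printed here from the GENCODE transcripts of build GRCm38, 5′ to 3′, to show what a sequencing read has to tell apart. Capitals mark bases that all 3 genes share.
Efnb1 (chromosome X): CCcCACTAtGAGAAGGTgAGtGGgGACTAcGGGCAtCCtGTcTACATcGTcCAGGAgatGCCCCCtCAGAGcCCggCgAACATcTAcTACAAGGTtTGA
Efnb2 (chromosome 8): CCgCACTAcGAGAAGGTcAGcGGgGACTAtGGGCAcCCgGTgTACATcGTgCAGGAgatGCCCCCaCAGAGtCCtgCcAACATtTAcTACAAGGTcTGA
Efnb3 (chromosome 11): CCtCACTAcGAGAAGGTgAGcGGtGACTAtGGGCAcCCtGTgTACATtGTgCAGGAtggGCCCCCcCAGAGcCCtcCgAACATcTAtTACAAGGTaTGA
All 3 genes shared 77 of the 99 bases, and 19 of the 22 positions that differ were the last base of a codon. Over whole transcripts the longest identical run of any 2 of the 10 members was 35 bases, between Epha7 and Ephb1, with a median of 15 over the 45 pairs. A longer read of these exons therefore holds at least 1 base that differs between any 2 members. Read length and the handling of multiply mapped reads were not given in the sources used here.

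The cells came from organoids grown from mouse embryonic stem cells of genotype MADM-11GT/TG;Emx1-CreER+/-, which all groups shared. MADM (mosaic analysis with double markers) labels the daughters of a recombined progenitor green or red, and here the recombinase was CreER, active with tamoxifen and expressed under Emx1, a gene of dorsal forebrain progenitors. 4-hydroxytamoxifen was given at 60 nM on day 13. On day 20 fluorescent cells of either colour were picked with a glass pipette, 1 by 1, and sequenced by Smart-seq3. The labels place each cell on 1 of 3 plates and give its clone, the size of that clone and the cell's colour. They also call every clone SN or N, without saying what these stand for. SN clones were small (46 clones, sizes 2 to 6, median 3) and N clones larger (22 clones, sizes 4 to 19, median 6.5). No organoid or culture is named, so clones can share an organoid, and the p-values cover no spread other than that between clones.

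Of the cells with a clone label, 86.97% passed a minimum of 1000 genes with an exon count, and these are the cells described throughout. They were 49, 42 and 40 cells of SN clones and 41, 38 and 37 cells of N clones on plates 1, 2 and 3. Their exon totals ran from 6171 to 13040432 counts, with medians of 1365828 in SN and 1887116.5 in N cells. Intervals of shares cover counting error over cells only: they take the cells as independent, although cells share clones, and are therefore too narrow for a statement about clones. Markers of excitatory neurons were counted in most cells, such as Neurod6 in 87.4% and Tbr1 in 69.2%. The radial glia genes ran more widely, from Fabp7 (95.5%) and Vim (93.1%) over Pax6 (55.9%) and Nes (47.8%) to Hes1 (21.9%). Genes of other types were counted too, among them Reln of Cajal-Retzius cells in 62.8%, Olig1 of the oligodendrocyte lineage in 51.4% and the interneuron gene Gad1 in 23.5% of cells. The summed level of 12 excitatory neuron genes had a median of 7396 counts per 1000000 (CPM) in SN and 7771 in N cells, and that of 12 radial glia genes 3326 in SN and 2790 in N cells. The pluripotency genes Nanog, Pou5f1 and Zfp42, which should be silent here, were counted in 4.05%, 2.02% and 0.810% of cells. Markers of vessels, microglia, mesenchyme and choroid plexus varied between those shares and far higher ones: Cldn5, Aqp1 and C1qa were counted in 2.43%, 2.83% and 3.24% of cells, but Ttr in 27.5%, Col3a1 in 36.8% and Pecam1 in 42.9%.

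All 10 members were counted in more cells than the pluripotency genes, while Epha3 and Efna5 were counted in no more cells than Pecam1. Among the receptors, Epha5 was the most widespread, with at least 1 exon count in 80.6% of cells (95% Wilson interval 75.18 to 85.02). Ephb2 followed with 58.3%, Epha4 with 54.7%, Epha7 with 49.8%, Ephb1 with 47.0% and Epha3 with 40.5%. Neighbours in this order below Epha5 had overlapping intervals. EphA5 and EphA7 are ephrin-A receptors known for gradients over the cortex, EphB2 and EphB1 are the main ephrin-B receptors, and EphA3 is a receptor of ephrin-A5.

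Among the ligands, Efnb2 was counted in 72.5% of cells, Efnb3 in 61.5%, Efnb1 in 56.3% and Efna5 in 34.4%. Efna5 encodes ephrin-A5, the sole ephrin-A among the members, and it was the least often counted of all 10. These shares moved with depth. When every cell was thinned to 100000 exon counts, which all but 22 cells allowed, Epha5 was still the most frequent at 73.8% and Efnb2 next at 69.3%, Efna5 stood lowest at 28.0%, and Epha7 stood at 36.0%, below Ephb1 at 40.0%.

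**Figure D1:**
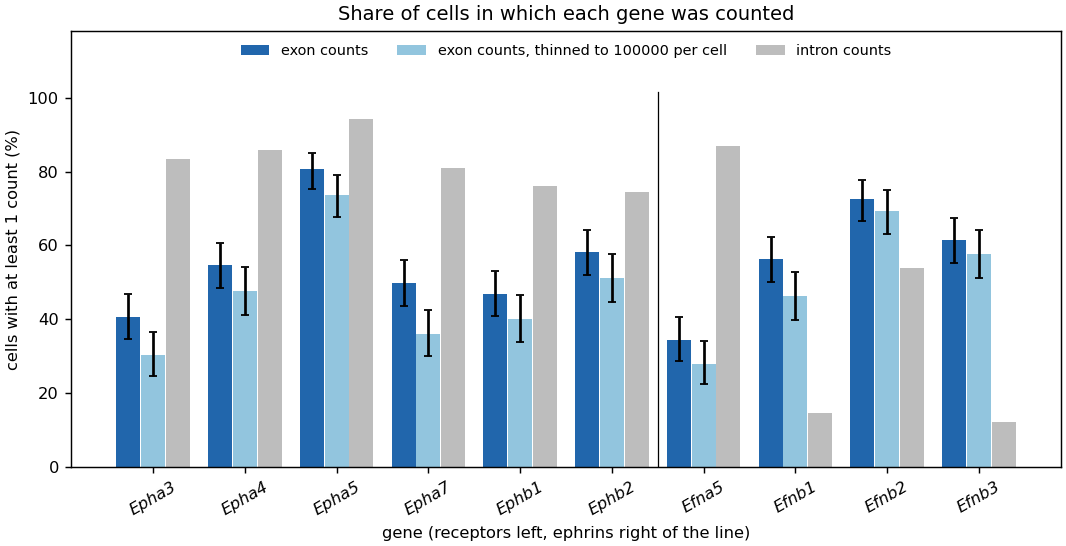
Share of the cells of both clone types with at least 1 count (y axis, %) for each member (x axis), from exon counts, from exon counts thinned to 100000 per cell (22 shallower cells left out) and from intron counts; error bars are 95% Wilson intervals. Epha5 at 80.6% and Efnb2 at 72.5% have the highest exon bars and Efna5 at 34.4% the lowest, and the intron bars of Efnb1 and Efnb3 are at 14.6% and 12.1%.

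Per kilobase of exon, which sets genes on a common scale if counts grow with length, the ephrin-B ligands had the highest means. Efnb3 averaged 33.1 CPM per kb over all cells, Efnb2 20.2 and Efnb1 10.8. Of the receptors, Epha4 averaged 10.6 CPM per kb, Epha5 10.1, Ephb1 7.73, Ephb2 5.36, Epha7 4.89 and Epha3 2.15, and Efna5 averaged 5.32. The medians gave another order, with Efnb2 at 9.42, Efnb3 at 6.57, Epha5 at 3.93 and Efnb1 at 0.513 CPM per kb. The means rested on few cells, so that neighbours in the order are not told apart: the 25 cells of highest level held between 42.6% (Efnb2) and 74.9% (Efna5) of a member's summed CPM, and the medians of Epha3, Epha7, Ephb1 and Efna5 were 0. In cells with a count, the median level was 131.7 CPM for Efnb2, 107.4 for Efnb3, 98.4 for Epha5 and 90.3 for Epha4, against 25.7 for Epha3 and 28.6 for Efnb1, on the CPM scale without the length.

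The rest of the family was counted in fewer cells than Epha5, Efnb2, Efnb3, Ephb2, Efnb1, Epha4, Epha7 and Ephb1. Efna3 was counted in 44.5% of cells, Efna2 in 37.7% and Efna4 in 26.3%, so that Efna3 and Efna2 were counted more often than Efna5 at 34.4% and Efna4 less often. The receptors Ephb6, which lacks kinase activity, Ephb3 and Ephb4 were counted in 21.9%, 20.6% and 18.2% of cells. Epha10 was counted in 16.2%, and Epha1, Epha2, Epha6, Epha8 and Efna1 in 5.26% to 7.69%, not far above the level of the pluripotency genes.

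SN and N clones were compared on exon counts summed over the cells of a clone, in the 42 SN clones and 20 N clones with at least 2 cells and with plate as a term, by the quasi-likelihood test of edgeR with Benjamini-Hochberg adjustment. No member passed the threshold of 0.05 and neither did any other gene: 0 of 11914 genes were called (0%). At an unadjusted p under 0.05 there were 2.06% of genes, 39 of them higher in SN clones and the others lower, and 1 of the 10 members, Epha4. On the same counts DESeq2 called 2 genes and limma-voom 1.45% of genes, none of them a member. The median log2 difference was -0.11 over all genes and -0.09 over the members, of which 3 were above 0 and 7 below.

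Epha4, a receptor for both ephrin classes, had the largest difference of the members. Its clone sums ran from 0 to 280.9 CPM with a median of 39.7 in SN clones, and from 5.43 to 589 CPM with a median of 75.1 in N clones. The ranges overlap: 5 of the 20 N clones lay above every SN clone and 12 of the 42 SN clones below every N clone. At 0 were 8 SN clones and no N clone. SN sums pooled fewer cells per clone on average, and the part of this in the zeros and low sums was not tested. Among the other members, up to 7 SN clones (Epha7 and Efnb1) lay below every N clone, and up to 10 (Efna5) above. For Epha3, 11 SN and 2 N clones were at 0. Epha4 means were 66.5 ± 76.4 CPM in SN, against 152.7 ± 176.1 CPM in N clones (SD). The log2 difference was -1.60 ± 0.61 (SE, 95% interval -2.83 to -0.38, unadjusted p = 0.0109, adjusted p = 1 by edgeR), and it was below 0 on each plate, at -0.49 on plate 1 (15 SN and 5 N clones), -1.64 on plate 2 (14 SN and 7 N clones) and -2.21 on plate 3 (13 SN and 8 N clones). The 95% intervals of plates 1 and 2 held 0 (-2.32 to 1.35 and -3.81 to 0.53), and that of plate 3 ran from -4.10 to -0.33. Over the 7 other ways of scaling, filtering and testing the log2 difference over all plates lay between -1.68 and -1.17, with adjusted p from 0.0511 to 1. The adjusted p of 0.0511 came from edgeR without a filter on low counts, where 17.4% of 39336 genes were called. The next lowest was 0.179 by limma-voom. The unadjusted p was 0.151 in clones of size 4 to 6 (-1.25 ± 0.85) and 0.0713 with each cell of a clone scaled to the same total (-1.17 ± 0.64), both by edgeR. Summed levels of some other marker lists also differed between the types, over cells that share clones. The 5 choroid plexus genes had an upper quartile of 0.527 CPM in SN, against 93.7 CPM in N cells, with a median of 0 in both. These 5 did not go together: Ttr was counted in 27.5% of cells, but Aqp1, Clic6, Folr1 and Kcne2 in 2.83%, 2.43%, 3.64% and 4.05%. The 5 genes of the oligodendrocyte lineage had a median of 43.8 CPM in SN, against 13.6 CPM in N cells. The part of these lists in the result was not tested.

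The share of cells in which Epha4 was counted was close between the types. The mean share of a clone's cells with an Epha4 count was 57.1% ± 38.9 in SN clones and 57.8% ± 23.3 in N clones (SD over clones). Per cell, the median was 2.69 CPM in SN, against 0.586 CPM in N cells, with upper quartiles of 79.9 in SN and 115.4 in N cells. Single cells carried much of the clone sums. In N clone 3, for example, 2 of 5 cells had a count and the higher had 866 CPM, and in N clone 16 it was 6 of 16 cells, the highest at 811 CPM. N clone 39, in contrast, had a count in 8 of 9 cells with a median of 364 CPM. The highest Epha4 level of any cell, 1063 CPM, was in SN clone 11.

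**Figure D2:**
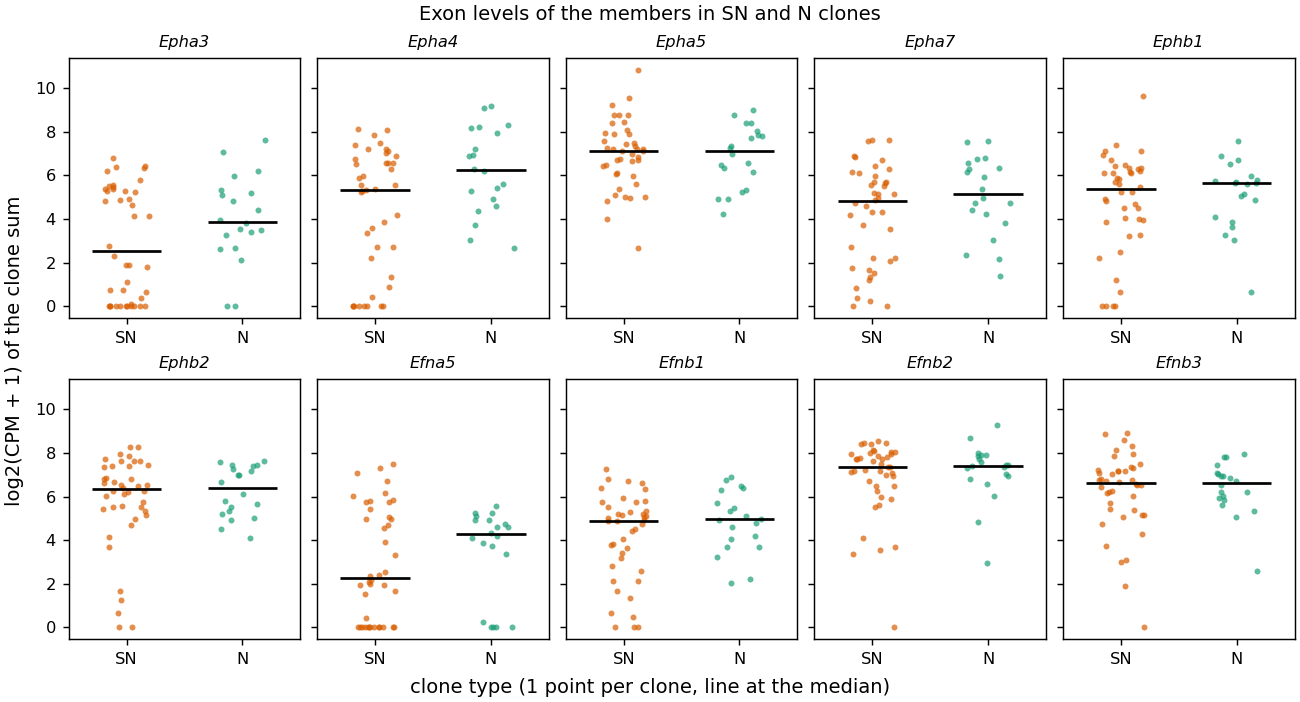
Exon level of each member in clone sums, as log2(CPM + 1) (y axis), in 42 SN clones and 20 N clones (x axis); each point is a clone and the line is the median. SN and N points overlap for every member, and for Epha4 the SN median of 39.7 CPM lies below the N median of 75.1 CPM.

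The other EphA receptors had smaller differences whose intervals held 0. Over the 7 alternatives Epha3 lay between -1.38 and -0.53, Epha7 between -1.15 and 0.34 and Epha5 between -0.49 and 0.42. Epha3 clone sums ran from 0 to 111.4 CPM with a median of 4.80 in SN clones and from 0 to 197.1 CPM with a median of 13.8 in N clones, a log2 difference of -0.85 ± 0.71 (SE). Epha7 had medians of 27.0 CPM in SN, against 35.3 CPM in N clones and a log2 difference of -0.39 ± 0.56. Epha5, the most widespread receptor, had an estimate close to 0. It ran from 5.39 to 1833 CPM with a median of 137.8 in SN clones and from 17.6 to 504 CPM with a median of 138.2 in N clones, a log2 difference of -0.02 ± 0.34 (95% interval -0.70 to 0.66). On plates 1, 2 and 3 its log2 difference was -0.98, -0.17 and 1.18, so the estimate near 0 joins plates of opposite sign. The 95% intervals of plates 1 and 2 held 0 (-2.25 to 0.29 and -1.41 to 1.07), and that of plate 3 ran from 0.16 to 2.19. The share of cells with an Epha5 count was 86.0% ± 19.7 in SN clones and 77.1% ± 23.4 in N clones, an untested difference of 8.87 percentage points, which was 11.0 with at least 10 counts and 14.3 in thinned cells (82.4% in SN and 68.1% in N clones). Epha5 was not alone in such differences. For Efnb2 it was 9.57, 0.33 with at least 10 counts and 3.30 in thinned cells, and for Efnb3 -0.94, -3.51 and -8.23.

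The EphB receptors had estimates whose intervals held 0. Ephb2 had a median clone level of 79.3 CPM in SN, against 84.6 CPM in N clones, with a log2 difference of 0.11 ± 0.42 (95% interval -0.74 to 0.95). Ephb1 had medians of 40.4 CPM in SN, against 49.0 CPM in N clones, with a log2 difference of 0.16 ± 0.56. Over the 7 alternatives Ephb2 lay between -0.23 and 0.34 and Ephb1 between -0.43 and 0.40. One SN clone stood out for Ephb1 at 792 CPM, against a highest N clone of 192.5 CPM.

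The ligands had intervals that held 0 too, but some estimates moved with the setting. Efnb1, at -0.35 on summed counts, was -1.04 (unadjusted p = 0.0609, adjusted p = 1.00 by edgeR) with each cell of a clone scaled to the same total and -1.05 in clones of size 4 to 6. Efna5, at -0.09, was -0.74 with equal scaling and -0.61 with limma-voom. Efnb2 lay between -0.36 and 0.07 and Efnb3 between -0.10 and 0.52 over the 7 alternatives. Efnb2, which had the narrowest interval of the members, ran from 0 to 375 CPM with a median of 161.6 in SN clones and from 6.72 to 613 CPM with a median of 169.6 in N clones, a log2 difference of -0.08 ± 0.32 (95% interval -0.72 to 0.55). Efnb3 had medians of 96.6 CPM in SN, against 97.2 CPM in N clones (log2 difference 0.28 ± 0.39), and Efnb1 had 28.7 CPM in SN, against 29.9 CPM in N clones (-0.35 ± 0.50). Efna5, the ephrin-A, was at 0 in 13 of 42 SN and 4 of 20 N clones, where SN sums again pooled fewer cells on average. Its medians were 3.81 CPM in SN, against 18.3 CPM in N clones while its means were 27.8 ± 44.4 in SN and 18.6 ± 14.3 in N clones, and the log2 difference of -0.09 ± 0.85 had the widest interval of all, -1.79 to 1.62. With the size factors of DESeq2 (RLE) its standard error was 0.71.

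Of the 12 other family genes 7 could be tested and 0 were called, with 3 above and 4 below 0 and a median log2 difference of -0.34. The 3 of smallest p were Ephb3 (-1.53 ± 0.98), Efna4 (-1.16 ± 0.95) and Ephb6 (-0.98 ± 1.04). Of the effector genes, which relay Eph signals to the cytoskeleton and to kinases, 29 could be tested and 0 were called, with 10 above and 19 below 0 and a median of -0.18. Rock1, a kinase of the cytoskeleton, had the smallest p of them at -0.90 ± 0.44 (unadjusted p = 0.0469, adjusted p = 1 by edgeR), followed by the small GTPase Cdc42 at -0.34 ± 0.18 and Rgs3, which binds the ephrin-B tail, at -1.77 ± 1.03.

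Intron counts gave a separate table of the same cells, in which 8 members could be tested and Efnb1 and Efnb3 had too few counts. No gene of 11050 was called by edgeR (0%), 24 were called by limma-voom, and 6.33% had an unadjusted p under 0.05, among them 1 of the 8 members. That member was again Epha4, whose intron sums had a median of 61.4 CPM in SN clones and 129.4 CPM in N clones. Its log2 difference was -1.15 ± 0.55 (SE, unadjusted p = 0.0386, adjusted p = 0.759 by edgeR), against a median of -0.10 over all genes. With the size factors of DESeq2 (RLE) in place of TMM it was -0.79 ± 0.56 (unadjusted p = 0.159 by edgeR), no longer under 0.05, and the median of all genes was 0.17. Exon and intron reads of a cell come from 1 library, so the tables are not independent samples. The other 7 lay between -0.76 (Ephb2) and 0.36 (Ephb1), all with intervals that held 0. Vav2, an exchange factor bound by Eph receptors, had the smallest intron p of the effector list at -1.97 ± 0.66 (unadjusted p = 0.00404, adjusted p = 0.414 by edgeR), followed by the kinases Src at -1.89 ± 0.86 and Rock2 at -1.06 ± 0.55. Of the other family genes Epha6 (0.58 ± 0.48), Epha10 (0.74 ± 0.81) and Efna2 (-0.27 ± 1.05) had the smallest p of 5 tested.

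**Figure D3:**
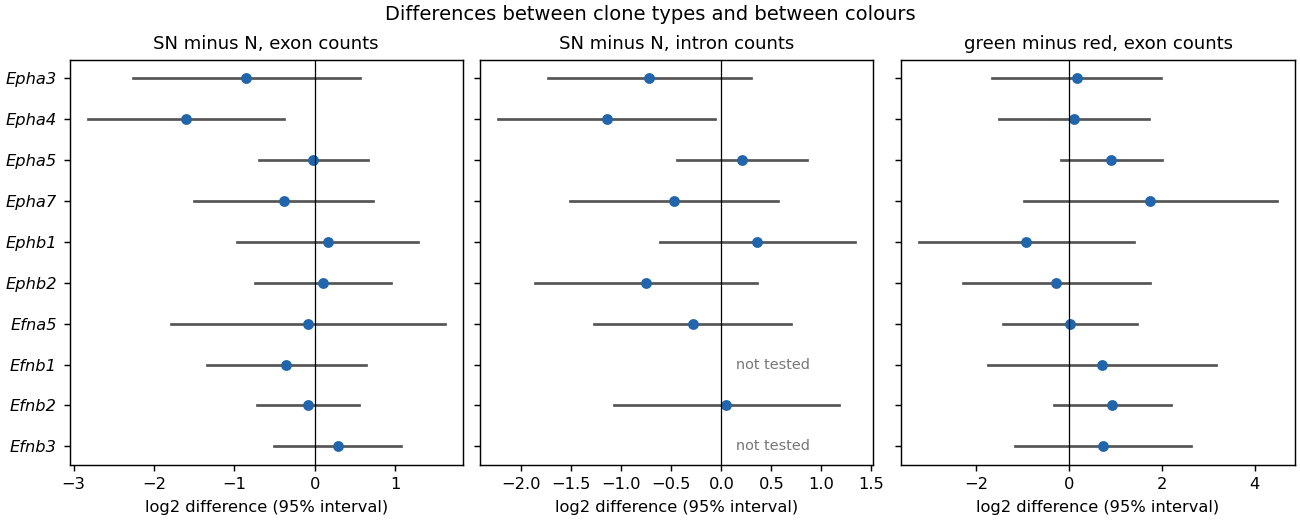
Log2 difference of each member (y axis) between SN and N clones in exon counts (left) and intron counts (middle), and between green and red cells of a clone in exon counts (right); points are estimates, lines 95% intervals, and each panel has its own x axis. The SN minus N intervals of Epha4 lie below 0, from -2.83 to -0.38 in exon counts and from -2.24 to -0.06 in intron counts, and all other lines cross 0.

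Exon and intron counts ranked the members in different ways. Efna5 had an exon count in 34.4% of cells and an intron count in 87.04%, and 53.8% of cells had intron counts alone. Epha5 had intron counts in 94.3% of cells and Epha4 in 85.8%, whereas Efnb1 and Efnb3 had them in 14.6% and 12.1%. Introns held 88.3% of all Epha3 counts, 84.6% of those of Efna5 and 76.6% of those of Epha5, but 0.848% of those of Efnb3, where the median gene tested had 22.6%. The members with few intron counts are short genes, Efnb1 spanning 12.9 kb and Efnb3 6.11 kb, and Efna5, Epha5 and Epha3 span 277.1, 363 and 321 kb. Among the long members the order did not follow length: Ephb1, the longest at 433 kb, had intron counts in 76.1% of cells, below Epha4 at 85.8% with 147.9 kb and Epha7 at 80.97% with 154.4 kb.

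Genes of such length had intron counts even where exon counts were almost lacking. Among 86 protein-coding genes of 200 to 500 kb with exon counts in under 5% of cells, the median gene had intron counts in 61.3% of cells (quartiles 50.9 to 72.6). Among genes of that length with exon counts in 20 to 40% of cells, which is where Efna5 lies, the median was 72.3% (quartiles 65.2 to 79.7). Efna5 at 87.04% stood above both quartile ranges. Among genes of 100 to 200 kb, the length of Epha4, the median was 42.7% (quartiles 31.4 to 54.1) with exon counts in under 5% of cells. With exon counts in 40 to 60% of cells, where Epha4 lies, it was 64.8% (quartiles 57.9 to 73.3), against 85.8% for Epha4. The source of intron counts in long genes was not tested. An intron count in a cell is therefore not read here as expression of a gene of either length.

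Green and red cells of the same clone were compared in 45 clones with both colours, with clone as a block. No gene of 7437 was called by edgeR (0%) and 1 was called by limma-voom, and 1.64% had an unadjusted p under 0.05, among them none of the 10 members. Epha5 came nearest of the members, at 264.8 ± 376 CPM in green cells, against 132.3 ± 128.9 CPM in red cells (SD over clones), with green the higher in 29 of 45 clones. Its log2 difference was 0.91 ± 0.55 (SE, unadjusted p = 0.0995, adjusted p = 1 by edgeR), against a median of 0.18 over all genes. Of all genes tested 62.0% had an estimate above 0, and green and red sums of a clone could hold different numbers of cells. Efnb2 was at 221.1 ± 180.7 CPM in green cells, against 161.5 ± 184.8 CPM in red cells, higher in green in 26 of 45 clones, with a log2 difference of 0.93 ± 0.63. Epha7 had the largest estimate, 1.75 ± 1.37, and Ephb1 the lowest, -0.92 ± 1.16, and the remaining 6 lay from -0.28 (Ephb2) to 0.73 (Efnb3). For Efnb3 the mean over clones went the other way, at 117.4 CPM in green cells, against 154.3 CPM in red cells, although the median was higher in green cells (99.1 CPM, against 61.2 CPM in red cells). The estimates of Epha3 (0.16) and Efna5 (0.02) were above 0 with lower means in green cells as well.

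Of the surrounding lists, 2 family genes could be tested between the colours, Efna2 (1.65 ± 1.16) and Efna3 (0.38 ± 1.16). Of 26 effectors tested 0 were called, and the 3 of smallest p were Acp1 (1.70 ± 0.93), Nck1 (1.85 ± 1.03) and Ptpro (1.43 ± 1.13). Acp1 and Ptpro encode phosphatases and Nck1 an adaptor protein.

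Clone size was tested per doubling, beside plate and clone type. No gene of 11914 was called by edgeR (0%), and 2.58% had an unadjusted p under 0.05, none of them a member. Estimates ran from -0.77 ± 0.67 per doubling for Epha3 to 0.72 ± 0.54 for Epha7, and the narrowest intervals were those of Epha5 (-0.88 to 0.28) and Efnb2 (-0.75 to 0.48). Without clone 16 the estimate of Epha5 was -0.52 ± 0.33 in place of -0.30 ± 0.29, and that of Efnb1 -0.77 ± 0.49 in place of -0.51 ± 0.43. Of the surrounding genes the smallest p were those of Ptpn11 (0.85 ± 0.48), Src (-0.59 ± 0.48) and Rock2 (0.43 ± 0.39) among 29 effectors, and of Ephb6 (-1.46 ± 0.93), Efna4 (1.47 ± 0.94) and Efna2 (-0.92 ± 0.67) among 7 family genes.

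Most cells held both sides of the system. A receptor and a ligand of the list were counted in the same cell in 82.996% of cells (95% Wilson interval 77.8 to 87.2), a receptor alone in 10.1%, a ligand alone in 3.24% and neither in 3.64%. With at least 10 counts asked of a gene the share with both was 71.3%, and in thinned cells 80.4%. A median cell had 6 of the 10 genes (quartiles 3 to 9), 3 receptors and 2 ligands. This number moved with depth, with a Spearman correlation of 0.70 with the exon total over cells, and of 0.55 in thinned cells. At 1 count the most common pattern was that of all 10 members, in 31 cells, and 80 patterns occurred in a single cell each. With at least 10 counts the most common was that of no member, in 21 cells, and all 10 were found in 11 cells. In thinned cells 3 had all 10 members, and the most common pattern occurred in 10 cells.

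The classes of partner are listed with 3 ephrin-B genes and 1 ephrin-A gene, which bears on how often each was met. An EphB receptor and an ephrin-B ligand were counted together in 62.8% of cells, and 60.0% of thinned cells. An EphA receptor with Efna5 was counted together in 33.6% of cells, and 26.7% of thinned cells. With Efna1 to Efna4, which are not members, counted as well, an EphA receptor met an ephrin-A in 60.7% of cells. Of the 85 cells with an Efna5 count, 83 also had an EphA receptor, where 89.1% of all cells had one, and 55.5% of all cells had an EphA receptor and no Efna5. All 6 receptors were counted in 18.2% of cells and all 4 ligands in 22.3%, and in thinned cells these shares were 4.44% and 12.9%.

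Each of the 24 receptor and ligand pairs was counted together more often than the product of the shares of its genes. The ratio ran from 1.12 for Epha5 with Efnb1 to 1.63 for Ephb1 with Efna5, with a median of 1.30, and in thinned cells from 1.12 to 1.59 with a median of 1.27. The most frequent pair, Epha5 with Efnb2, was found in 66.8% of cells. Efna5 was counted in 54.8% of cells with Epha4 and 9.82% of those without it, and in 56.0% of cells with Ephb1 and 15.3% of those without it. Ratios above 1 are general in these cells: over the pairs of a member with any of the 6950 genes counted in 34 to 81% of cells, the range of the members, the median ratio was 1.29 (quartiles 1.20 to 1.38) and 99.99% were above 1. Taken by gene, the quartiles were 1.33 to 1.54 for Efna5 and 1.27 to 1.43 for Ephb1. The 1.63 of these 2 together, picked as the highest of 24, lay above both ranges, which was not tested. The ratio is also capped by how often a gene is counted, at 1.24 for any pair with Epha5. Pairs that are not known partners, such as Ephb1 with Efna5, stood above the product as well.

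**Figure D4:**
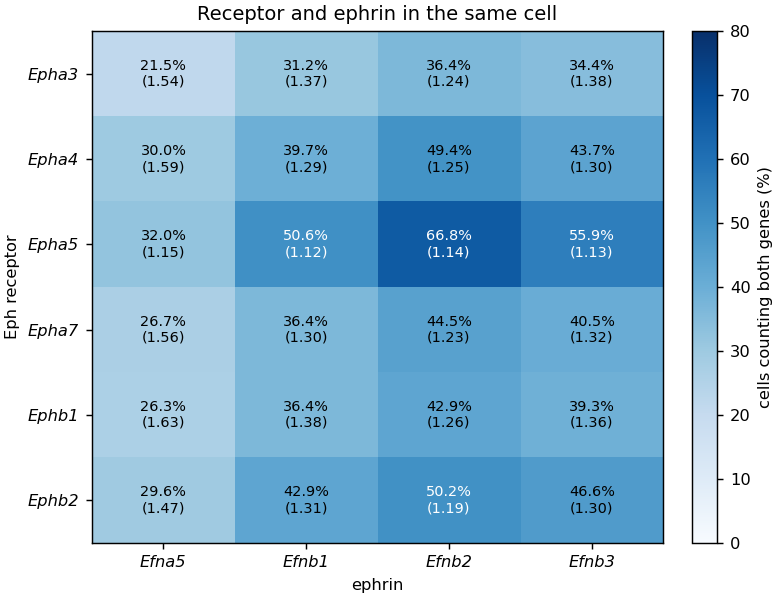
Share of cells (colour scale and upper figures, %) with an exon count of both a receptor (rows) and an ephrin (columns), and below it in brackets the ratio to the product of the 2 shares. Shares run from 21.5% for Epha3 with Efna5 to 66.8% for Epha5 with Efnb2, and every ratio is above 1, as were 99.99% of those of the members with other genes; the ratios of Epha5, at 1.12 to 1.15, cannot exceed 1.24.

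Levels of the members also went together weakly across cells. Spearman correlation over all kept cells was above 0 for each of the 45 pairs, from 0.15 to 0.43 with a median of 0.28, where the median of a member with all genes was 0.24. All of these share the depth of a cell, and in thinned cells the pairs ran from 0.03 to 0.37 with a median of 0.20, against 0.15 with all genes. The highest in thinned cells were Efnb1 with Efnb2 (0.37) and the receptor Ephb2 with its ligand Efnb3 (0.36). Epha4 with Efna5, the highest before thinning at 0.43, came to 0.27.

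Between SN and N clones, the direction for a receptor with a ligand and for an EphB receptor with an ephrin-B changed with the way of counting. A receptor with a ligand was found in 86.2% ± 24.1 of a clone's cells in SN and 81.9% ± 19.3 in N clones (SD over clones), an EphB receptor with an ephrin-B in 65.2% ± 29.9 in SN and 65.3% ± 27.3 in N, and an EphA receptor with Efna5 in 36.5% ± 33.4 in SN and 32.8% ± 26.7 in N. The SN minus N difference of a receptor with a ligand was 4.22 percentage points, -0.36 with at least 10 counts and -3.38 in thinned cells. For an EphB receptor with an ephrin-B it was -0.17, -0.67 and 3.35, and for an EphA receptor with Efna5 3.75, 5.62 and 1.63. Any EphA receptor was found in 93.8% ± 13.9 of a clone's cells in SN and 84.7% ± 18.9 in N clones, a difference of 9.03 percentage points, which was 8.89 with at least 10 counts and 5.48 in thinned cells. None of these was tested. The mean number of members per cell was 5.91 ± 2.18 in SN and 5.71 ± 1.66 in N clones.

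The members had weak correlations with an axis from radial glia to neuron. The axis was the mean log2(CPM + 1) of the excitatory neuron genes minus that of the radial glia genes, and Spearman correlation with it over all kept cells had a median of 0.02 over all genes tested. Efnb2 (0.19), Ephb1 (0.18), Epha3 (0.17) and Epha5 (0.14) had the highest correlation of the members, and Epha7 (-0.04) and Ephb2 (-0.01) the lowest. Of the genes tested, 97.8% were below Efnb2, 96.6% below Ephb1, 95.9% below Epha3 and 92.9% below Epha5 (76.9% in thinned cells). For Epha7 and Ephb2 it was 25.7% and 39.0%. In thinned cells Efnb2 (0.22), Epha3 (0.21) and Ephb1 (0.17) were again highest, Epha5 was at 0.10 and Ephb2 at 0.05, and Epha7 was the only member below 0, at -0.08, beside a median of 0.04. The 82 cells of highest score averaged 63.2 CPM of Ephb1, 176.3 CPM of Efnb2 and 205.2 CPM of Epha5, against 19.1, 101.9 and 96.02 CPM in the 83 cells of lowest score. The medians were 0.25 CPM of Ephb1, 98.1 CPM of Efnb2 and 74.3 CPM of Epha5 in the highest, against 0, 13.9 and 43.3 CPM in the lowest. Epha7 averaged 48.4 CPM in the highest and 46.8 CPM in the lowest. Means were lower in the highest for Ephb2 (68.1 against 75.3 CPM), Efnb1 (40.6 against 44.4 CPM) and Efna5 (13.5 against 20.4 CPM). They were higher there for Epha3, Epha4 and Efnb3. These are weak relations over cells that share clones and libraries' depth, and they are given as a description.

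As a median over the members, cells of 1 clone were little more alike in these genes than cells of different clones. For each gene the mean absolute difference in log2(CPM + 1) was taken over 529 pairs of cells within a clone and 4483 pairs from different clones of the same plate and type. The ratio of the first to the second was below 1 for 9 of the 10 members, with a median of 0.96, while it was below 1 for 71.97% of all genes tested, with a median of 0.95. These ratios pool the clone types in unequal parts, since most pairs within a clone were of N cells. Taken by type, 6 of 10 members were below 1 over SN pairs (median 0.96) and 7 of 10 over N pairs (median 0.95), and without clone 16, an N clone with 16 cells kept, the N count was 6. No share over all genes was taken by type or without clone 16. Such counts are therefore not read as a result about the members. In thinned cells the counts were 5 over SN pairs (median 1.00) and 7 over N pairs (median 0.90). Over all pairs of thinned cells 9 of 10 members were below 1 (median 0.92), against 68.1% of all genes tested (median 0.95). With all kept cells and no thinning, Epha3 had the lowest ratio, 0.82 (2.05 within and 2.48 between clones), and Epha7 came next at 0.88 (2.79 within and 3.16 between). Clone 16 weighed on both: without it the ratios over all pairs were 0.96 for Epha3 and 1.01 for Epha7, and 6 of 10 members were below 1. For Epha3 the SN pairs alone, which do not hold that clone, gave 0.83 (1.99 within and 2.41 between), while the N pairs gave 0.80 with it and 0.98 without it. For Epha7 the SN pairs gave 1.02, and the N pairs 0.84 with it and 0.99 without it. Epha4 had a ratio of 0.94, and 0.90 without that clone, with 0.78 over SN pairs and 0.95 over N pairs. Epha5 stood at 1.05 over all pairs, but at 1.01 over SN and 1.00 over N pairs, and at 0.96 over N pairs without clone 16. In thinned cells, clone 16 included, Epha3 stood at 0.72 over all pairs, 0.73 over SN and 0.67 over N pairs. Of the genes tested 6.06% had a lower ratio than Epha3 there, against 13.7% with all kept cells and no thinning, clone 16 included in both. Epha7 stood at 0.83 in thinned cells, with 1.11 over SN and 0.72 over N pairs.

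**Figure D5:**
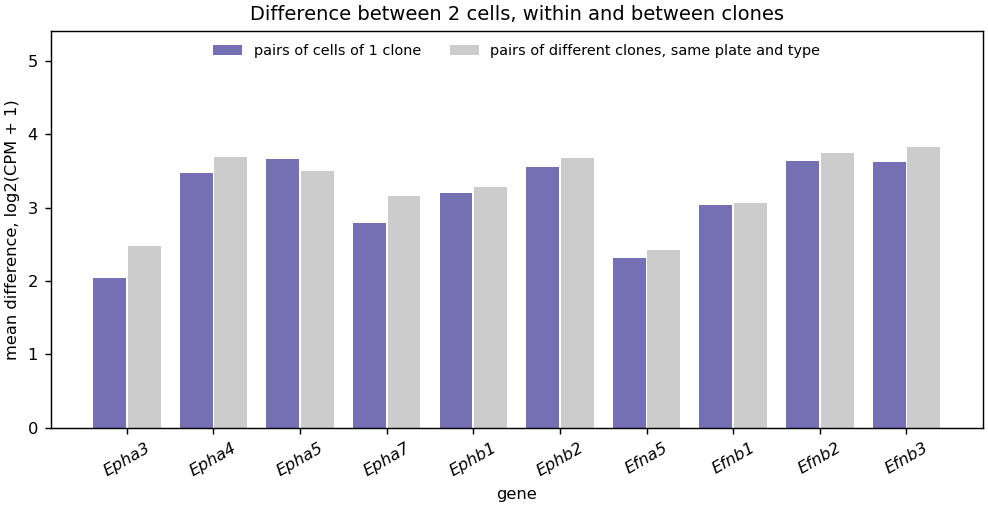
Mean absolute difference between 2 cells in log2(CPM + 1) (y axis) for each member (x axis), over 529 pairs of cells within a clone and 4483 pairs of different clones of the same plate and clone type. The bars of a gene are close in height, the widest gaps being those of Epha3 (2.05 within, 2.48 between) and Epha7 (2.79 within, 3.16 between).

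Taken as a profile over the 10 genes, the correlation of a cell with its clone mates exceeded that with cells of other clones by 0.02 ± 0.28 (SD over 62 clones) and was the higher in 37 of 62 clones. In SN clones the gain was 0.0011 ± 0.32, above 0 in 23 of 42, and in N clones 0.06 ± 0.17, above 0 in 14 of 20. In thinned cells it was -0.02 ± 0.28 in SN clones, above 0 in 20 of 40, and 0.07 ± 0.20 in N clones, above 0 in 12 of 19.

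Across the 62 clone sums, the genes whose levels were most like those of the 6 members counted in the most cells were found by Spearman correlation among all genes tested. For Epha4 these were Ric8b (0.60) and Copb1 (0.58), for Epha5 Tnrc18 and Sorbs2 (both 0.56), and for Ephb2 Huwe1 (0.50) and Insig1 (0.49). For Efnb1 they were Rbm27 (0.61) and Fiz1 (0.60), for Efnb2 Zfp462 and Tmem8b (both 0.53), and for Efnb3 Armh4 and Chd5 (both 0.48). The median correlation with all genes was between -0.0035 (Epha5) and 0.15 (Epha4), and no other member was among these 12 genes.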

How the data were processed

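Raw exon counts and intron counts per gene and cell were deposited by the authors, with no scaling recorded, in 2 tables of 55359 gene IDs, with 1 column per cell. STAR 2.7.9a, R 4.4.0 and build GRCm39 are named, per the submitters' processing notes. How reads were counted, on which annotation and whether molecular identifiers were used was not given in the sources used here. Symbols matched 52083 of the IDs, and the IDs without a symbol stayed in the totals and tests. Exon lengths, gene spans and the printed sequences came from GENCODE M21 on GRCm38, a different build, so no coordinates are given.

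The 3 cells that the labels put in no clone were left out of all comparisons. Clone 45, labelled on plates 2 and 3, was put on plate 3. The highest correlation of 2 cells was 0.888, so none counted as a repeat. The minimum for a cell was 1000 genes with exon counts. Clone sums of clones with at least 2 kept cells were tested with edgeR 4.0.16 (quasi-likelihood F test, TMM, filterByExpr, Benjamini-Hochberg over all genes tested, threshold 0.05). Colour was tested with clone as block, and clone size as log2 of the labelled size, which for clone 2 is 3 although 4 cells are labelled with it. DESeq2 1.42.0 and limma 3.58.1 (voom) were alternatives. CPM is counts per 1000000 of a cell's total or of a clone's TMM-scaled total. Standard errors are the log2 difference over the square root of F. For estimates near 0 they moved with the scaling, so widths of such intervals are rough. Between the colours that of Efna5 was 0.73 with TMM and 1.46 with RLE, and that of Epha4 0.81 and 0.46. Shares of cells, combinations, similarity within clones and correlations over cells are descriptions and have no p. The members, lists and tests were chosen with earlier results of these data known. The genes named beside the members are those past the threshold in a comparison or, where none passed, the 3 of smallest unadjusted p in each list, and the 2 genes most like each of the 6 members counted in most cells.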

Additional observations from a re-analysis of the deposited data

Results flagged for a closer look

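Members were also counted in cells that have no clone label and therefore entered no comparison. Of these 3 cells, the first had more than 3 exon counts of 7 members, with Epha5 the highest at 261.6 CPM. The second, with 5976683 exon counts in all, had more than 3 counts of all 10 members, with Epha4 the highest at 505 CPM. The third, with 2257 exon counts, had none.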

How the results depend on the processing

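Epha4 stayed below 0 between SN and N clones under all 7 alternatives for exon and all 3 for intron counts, and no member passed the threshold under any alternative run (lowest adjusted p 0.0511, for Epha4 without a filter on low counts). Of the log2 differences of members under alternatives 87.7% kept their sign and 19 did not, all 19 from estimates whose intervals held 0. Median differences of all genes between SN and N clones were -0.11 with TMM, 0.00049 with RLE and -0.60 with limma-voom.

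Between SN and N clones, Epha5 was 0.073 with DESeq2, 0.073 with RLE, 0.42 with limma-voom and 0.36 with cells weighted equally. With equal weights Epha7 was 0.13 and Efnb2 0.067. In clones of size 4 to 6 (19 SN and 10 N clones) Epha7 was 0.34, Ephb2 -0.23 and Efna5 0.17. Efna5 was 0.048 in cells with at least 2000 genes and 0.0014 with DESeq2. With limma-voom Ephb1 was -0.43, Ephb2 -0.13 and Efnb3 -0.10. Efnb2 introns were -0.83 with limma-voom and -0.0082 without a filter. Between the colours, limma-voom put Epha4 at -0.021 and Efna5 at -0.46, and RLE put Efna5 at -0.069.

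Where 0% of genes were called between SN and N exon sums, 0.0169% (2 genes) were called in cells with at least 2000 genes, 0.0168% (2 genes) by DESeq2, 1.45% by limma-voom and 17.4% without a filter. Intron calls were 0.217% by limma-voom and 9.03% without a filter. Colour calls were 0.0134% by limma-voom, 0.0134% by RLE and 0.00264% without a filter, 1 gene each. Clone size calls were 9.43% without a filter and 0.00839% (1 gene) without clone 16. The cause was not tested. Of 26 SN minus N differences in shares of cells and combinations, given with no test, 10 changed sign. In percentage points, Epha3 was 2.56, -2.80 with 10 counts asked and -2.14 in thinned cells, Epha7 0.83, -5.22 and -3.28, and Ephb1 -0.04, 2.14 and 3.47, and Ephb2 was 0.68 and -1.09 with 10 counts. The other 3 were combinations. Between SN and N clones no paired analysis was possible because replicate numbers here only name cells in accession order, whereas the colours were compared within clones. Exon totals down to 6171 limit what a cell without a count can show.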
